A study of Mus musculus with 8 samples.

Results

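Mitochondria are carried along axons by motor proteins and held in place by docking proteins, and 10 genes of this machinery were examined in cultured mouse neurons that lack NUAK1, a kinase related to AMPK. The genes were chosen by symbol: Snph, Rhot1, Rhot2, Trak1, Trak2, Kif5a, Kif5b, Kif5c, Sybu and Kif1b. All 10 were found among the 32726 gene identifiers of the count table and all 10 passed the filter on low counts, which kept 16272 genes. The data comprised poly-A RNA sequencing of 4 Nuak1 knockout (KO) and 4 wild type (WT) libraries. Libraries are called by genotype and by their number in the labels (KO1, WT1 and so on). The neurons came from embryos of a constitutive Nuak1 knockout line, in which every cell of the animal and not only neurons carries the deleted allele, and were grown for 5 days without serum. The labels name no Cre, drug or other treatment for either genotype. The labels give the cell type as neurons and the tissue as cortex or hippocampus without saying which, while the study describes the cultures as cortical neurons. The study's methods describe as many animals as libraries in each genotype. The labels also give a lane, with 2 libraries of each genotype on lane A and on lane B, and a strain code (BJ, BK, BO or BQ) that they do not explain. BJ stood only on KO libraries, BO and BQ only on WT libraries, and BK on KO4, WT2 and WT4. Levels are given as CPM, the count of a gene scaled to the total count of its library.

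Syntaphilin, the product of Snph, anchors axonal mitochondria to microtubules and so keeps them stationary. The LKB1-NUAK1 pathway is known to immobilise mitochondria at presynaptic sites of cortical axons through syntaphilin. Whether the RNA levels of these genes differ without NUAK1 is the question here. Protein and the position of mitochondria were not measured in these libraries. A moving mitochondrion carries the outer membrane GTPases MIRO1 and MIRO2 (Rhot1 and Rhot2), which bind the adaptor proteins TRAK1 and TRAK2. The adaptors in turn bind kinesin-1, the plus-end directed motor whose heavy chains are encoded by Kif5a, Kif5b and Kif5c. Syntabulin (Sybu) is a further adaptor between kinesin-1 and its cargo, and Kif1b encodes a kinesin-3 motor of mitochondria and synaptic vesicle precursors.

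The regions upstream of Snph, Kif5c and Kif1b are shown because Snph is the docking gene at the centre of the question, while Kif5c and Kif1b had the lowest unadjusted p-values of the 10 genes. Each is the 250 bases before a transcription start of RefSeq on GRCm38.p6, read on the strand of the gene. Capitals mark 4 motifs on either strand. GGGCGG is the GC box bound by factors of the SP family. CCAAT is the box of the same name. TGACGTCA is the cAMP response element. TATAAA is the TATA box.
Snph, chr2:151632594-151632843, minus strand: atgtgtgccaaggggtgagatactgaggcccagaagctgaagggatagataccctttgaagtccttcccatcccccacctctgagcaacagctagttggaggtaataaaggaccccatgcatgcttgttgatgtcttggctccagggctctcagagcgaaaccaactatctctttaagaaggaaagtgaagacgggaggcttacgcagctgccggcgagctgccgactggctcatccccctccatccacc
Kif5c, chr2:49619036-49619285, plus strand: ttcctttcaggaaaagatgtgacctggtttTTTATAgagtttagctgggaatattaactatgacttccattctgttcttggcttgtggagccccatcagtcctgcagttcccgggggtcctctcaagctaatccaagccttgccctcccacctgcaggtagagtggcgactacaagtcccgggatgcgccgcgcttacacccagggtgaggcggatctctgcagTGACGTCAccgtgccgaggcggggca
Kif1b, chr4:149307699-149307948, minus strand: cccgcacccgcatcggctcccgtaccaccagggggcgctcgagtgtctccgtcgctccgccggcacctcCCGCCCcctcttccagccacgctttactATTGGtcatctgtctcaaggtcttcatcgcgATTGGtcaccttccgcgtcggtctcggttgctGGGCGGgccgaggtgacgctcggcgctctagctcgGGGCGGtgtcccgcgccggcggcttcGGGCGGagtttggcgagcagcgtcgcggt
The window of Snph held none of the 4 motifs. The Kif5c window held 1 TGACGTCA, which was present in 1.55% of the 32851 promoter windows of the table, and 1 TATAAA, present in 12.4%. The table lists 2 starts for Kif1b, and the window of the other (chr4:149307734-149307983), which overlaps the one shown, held 3 GC boxes, 2 CCAAT boxes and 32 CpG dinucleotides. The Kif1b window shown held 4 GC boxes and 2 CCAAT boxes, which 32.7% and 33.8% of all windows held at least once. It was also the richest in G and C of the 3, at 69.6% with 35 CpG dinucleotides, whereas the Snph window had 54.4% with 6 and the Kif5c window 55.2% with 11. The median of all windows was 52.4% with 6 CpG dinucleotides. Promoter entries were found for 7 of the 10 genes, and a match describes the letters only.

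Nuak1 itself followed the labels. Its level was 2.47, 2.72, 1.957 and 2.35 CPM in KO1 to KO4, and 51.6, 68.5, 82.6 and 75.3 CPM in WT1 to WT4. KO1 and WT1 stood apart from the other 6 libraries before any genotype difference was considered. On the first principal component, which held 51.9% of the variance of the 500 most variable genes, they lay at -27.6 and -28.4 and the others between 0.073 and 22.6. In CPM they were together the 2 lowest or the 2 highest of the 8 libraries for 49.3% of the tested genes. Both were on lane A. Tubb3, the neuronal beta tubulin, stood at 299 CPM in KO1 and 252 CPM in WT1 and between 725 and 1342 CPM in the others, while Map2, the dendritic microtubule protein, was highest in these 2 libraries at 3580 and 3877 CPM. Total counts ranged from 31247078 to 67155004 per library. The lowest count of any of the 10 genes was 407, for Rhot2 in WT1.

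None of the 10 transport and docking genes passed the Benjamini-Hochberg (BH) threshold of 0.05 in edgeR's quasi-likelihood test of KO against WT, with a background of 0.0492% of all tested genes. By a lenient rule, an absolute log2 fold change above 0.25 with an unadjusted p under 0.05, Kif5c and Kif1b were lower in KO and no member was higher. Of 23 alternative fits, 7 ended the call of Kif5c and 13 that of Kif1b. Both calls ended without the surrogate variable (log2 fold changes of -0.26 for Kif5c and -0.25 for Kif1b, unadjusted p = 0.0740 and 0.109 in edgeR), with the strain code as a term (-0.23 and -0.24, unadjusted p = 0.376 and 0.328), in lane A alone (-0.19 and -0.13), and without KO2 (log2 fold changes of -0.22 each). The call of Kif5c also ended with 2 surrogate variables (-0.23) and without WT2 (-0.24). The call of Kif1b also ended with lane as a term (-0.25, unadjusted p = 0.106 in edgeR), without KO1 and WT1 together (-0.24, unadjusted p = 0.0931), with an offset for exon length (-0.15, unadjusted p = 0.143), and when KO1, KO3, WT1 or WT2 was left out (log2 fold changes of -0.27 to -0.19). The remaining fits that ended a call included the replicate number as a term. With it beside the surrogate variable, Kif5c was at -0.244 and Kif1b at -0.237 (unadjusted p = 0.0218 and 0.0452 in edgeR). With it in place of the surrogate variable, Kif1b was at -0.243 (unadjusted p = 0.0436 in edgeR). The same rule called 3.53% of all tested genes lower and 2.22% higher, or 5.75% in all. An unadjusted p under 0.05 was reached by these 2 of the 10 genes, beside 10.6% of all tested genes. The CPM of the genotypes did not overlap for Sybu alone, which was higher in KO, beside 1.54% of all tested genes higher and 0.86% lower without overlap. The median log2 fold change of the 10 genes was -0.031, against 0.015 for all tested genes, and their median absolute log2 fold change was 0.11, against 0.11. The log2 fold change was above 0 for 2 of the 10, Sybu and Rhot2, beside 53.8% of all tested genes. In these bulk samples, fewer cells of a type and less RNA per cell cannot be told apart.

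**Figure D1:**
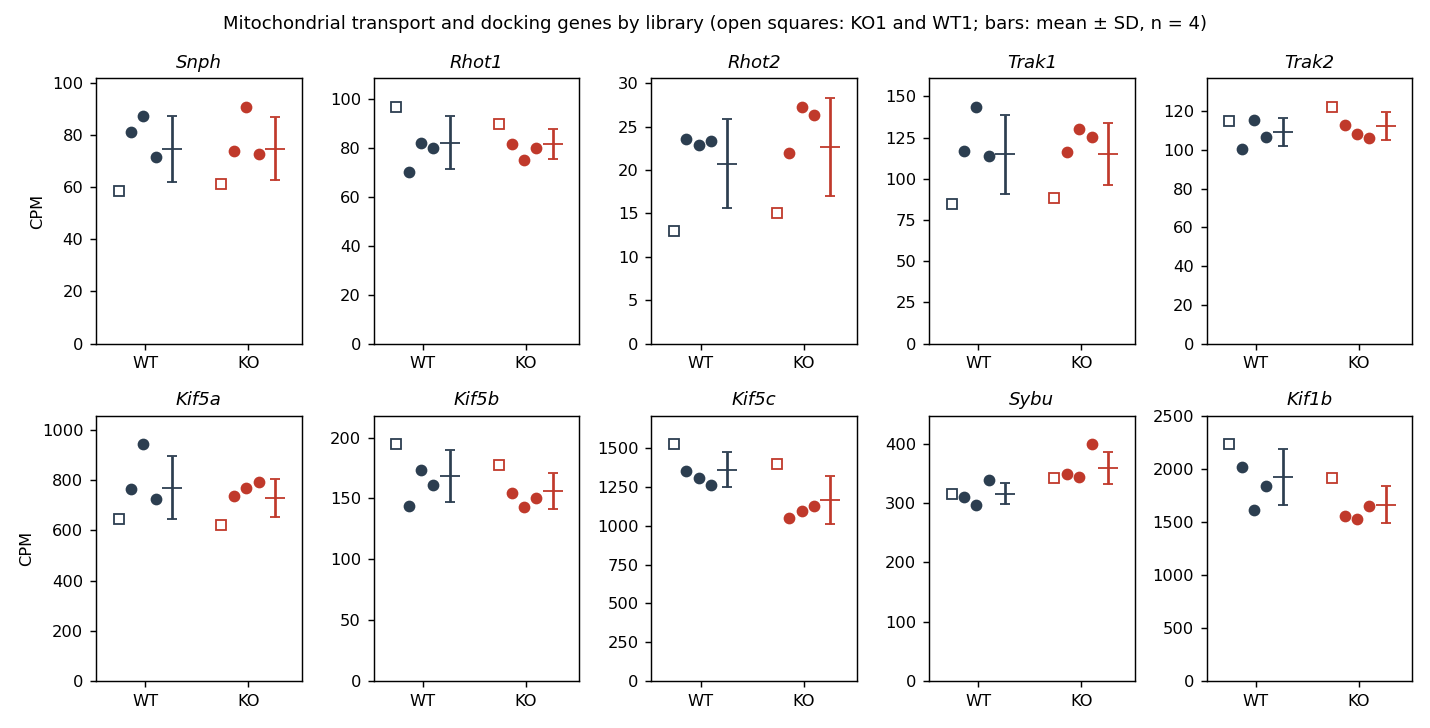
CPM of each of the 10 genes in the 4 WT (blue) and 4 KO (red) libraries, with KO1 and WT1 as open squares and bars for the mean ± SD (n = 4). The genotypes overlap in every panel but that of Sybu, and KO1 and WT1 lie together below the other libraries for Snph, Rhot2, Trak1 and Kif5a and above most of them for Kif5c and Kif1b.

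The docking gene Snph (ENSMUSG00000027457, chr2:151590549-151632607 on GRCm38) had nearly the same mean level in both genotypes. It stood at 61.4, 73.9, 90.8 and 72.9 CPM in KO1 to KO4 and at 58.4, 81.0, 87.3 and 71.4 CPM in WT1 to WT4. The 2 lowest values were those of KO1 and WT1, and the highest KO and WT values, in KO3 and WT3, were close to each other. The KO mean was 74.7 ± 12.1 CPM and the WT mean 74.5 ± 12.6 CPM (SD, n = 4), and the fitted log2 fold change was -0.014 with a standard error (SE) of 0.083 (edgeR, unadjusted p = 0.866, BH-adjusted p = 0.966). Its 95% confidence interval ran from -0.20 to 0.17. Without KO1 and WT1 the log2 fold change was -0.049. It was -0.13 within lane A and 0.042 within lane B, so that its direction differed between lanes, and that difference was not tested.

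MIRO1 and MIRO2 link mitochondria to the motor complex and release them when calcium rises. Rhot1 (ENSMUSG00000017686, chr11:80208610-80267907) stood at 89.8, 81.7, 75.1 and 80.0 CPM in the KO libraries and 96.7, 70.1, 81.7 and 79.9 CPM in the WT libraries. Here KO1 and WT1 were the 2 highest of the 8, and the WT values spanned the KO values entirely. The log2 fold change was -0.048 (SE 0.068, interval -0.20 to 0.10, BH-adjusted p = 0.831 in edgeR), and ran from -0.087 without WT2 to -0.0034 without WT1 when 1 library was left out. Rhot2 (ENSMUSG00000025733, chr17:25838457-25844525) was the least abundant of the 10 genes and the most variable, with 15.0, 21.9, 27.3 and 26.4 CPM in KO and 13.0, 23.6, 22.9 and 23.3 CPM in WT. KO1 and WT1 were its 2 lowest libraries by a wide gap, and the remaining WT values lay inside the KO range. The log2 fold change was 0.12 (SE 0.089, interval -0.077 to 0.32, BH-adjusted p = 0.648 in edgeR), at 0.19 within lane A, 0.0044 within lane B and 0.058 without WT3. Of the exonic bases of Rhot2, 4.20% are shared with Wdr90 on the same strand (NCBIM37 annotation), where reads are left uncounted by the counting mode used.

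The TRAK adaptors connect MIRO with kinesin-1 and with dynein. Trak1 (ENSMUSG00000032536, chr9:121297502-121474919) had 88.5, 116, 130 and 125 CPM in KO and 84.9, 117, 144 and 114 CPM in WT. Its 2 lowest values were again KO1 and WT1. The means were 115.0 ± 18.6 and 114.8 ± 23.99 CPM (SD, n = 4) and the log2 fold change was -0.0078, with an interval from -0.14 to 0.12. Trak2 (ENSMUSG00000026028, chr1:58900449-58974345) had 122, 113, 108 and 106 CPM in KO and 115, 101, 115 and 107 CPM in WT. It was the steadiest of the 10 genes, with a coefficient of variation of 6.19% over the 8 libraries, against 17.3% for Trak1 and 23.4% for Rhot2. Its log2 fold change was -0.0044, with an interval from -0.14 to 0.13. Both adaptors thus had means closer between genotypes than the spread of either group.

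The lowest unadjusted p among the 10 genes was that of a kinesin-1 heavy chain, Kif5c. Kif5c (ENSMUSG00000026764, chr2:49619286-49774778), an isoform enriched in neurons, stood at 1396, 1051, 1092 and 1130 CPM in the KO libraries and 1525, 1354, 1307 and 1262 CPM in the WT libraries. KO2, KO3 and KO4 lay below every WT library, whereas KO1 lay above 3 of the 4. The KO mean was 1167 ± 156 CPM and the WT mean 1362 ± 115 CPM (SD, n = 4). The fitted log2 fold change was -0.27, which is a difference of -17.2% (SE 0.086, interval -0.46 to -0.081, unadjusted p = 0.00996, BH-adjusted p = 0.365 in edgeR), which ranked 440 by p among all tested genes. Without KO1 and WT1 it was -0.30 and the genotypes no longer overlapped, as for 3.44% of all tested genes in that direction. It was -0.19 within lane A and -0.36 within lane B.

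Kif5a (ENSMUSG00000074657, chr10:127225695-127266348), the isoform found almost only in neurons, had 622, 738, 768 and 792 CPM in KO and 647, 764, 944 and 726 CPM in WT. The groups overlapped widely and KO1 and WT1 were lowest, which is the opposite of their place for Kif5c. Its log2 fold change was -0.098 (SE 0.077, interval -0.27 to 0.073, BH-adjusted p = 0.670 in edgeR), at -0.043 without WT3 and -0.051 without WT1. Kif5b (ENSMUSG00000006740, on chromosome 18), the isoform used in most tissues, had 178, 154, 143 and 150 CPM in KO and 195, 144, 173 and 161 CPM in WT. Its log2 fold change was -0.15 (SE 0.071, interval -0.31 to 0.0091, BH-adjusted p = 0.495 in edgeR), at -0.094 without WT3 and -0.035 with the strain code as a term. For Kif5b, 43.0% of the 6032 bases of the longest transcript matched other places of the NCBIM37 genome at 95% identity or more over at least 50 bases, while the other 9 genes had no such match, so that its counts from uniquely aligned reads are uncertain. All 3 heavy chains had a log2 fold change below 0, except that Kif5a was at 0.073 with the strain code as a term, and the summed CPM of the 3 was 2196, 1943, 2003 and 2073 in KO and 2367, 2261, 2424 and 2149 in WT. KO1 was the highest KO library and lay above WT4, so the sums overlapped.

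Sybu (ENSMUSG00000022340, chr15:44671856-44788070) was the only member whose libraries separated completely by genotype. The KO libraries stood at 342.95, 349.8, 343.16 and 399.3 CPM, and the WT libraries at 315.9, 310, 297 and 338.9 CPM. The separation was narrow, since the lowest KO library exceeded the highest WT library by little, and the highest value, in KO4, stood well above the other 3 KO libraries. The means were 359 ± 27.2 and 316 ± 17.4 CPM (SD, n = 4) and the log2 fold change was 0.15 (SE 0.076, interval -0.020 to 0.32, unadjusted p = 0.0782, BH-adjusted p = 0.514 in edgeR). Without KO4 it was 0.075, within lane A 0.25 and within lane B 0.030. Of its exonic bases, 2.29% overlap 2310069G16Rik on the opposite strand (NCBIM37 annotation).

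Kif1b (ENSMUSG00000063077, chr4:149176319-149307773) had the highest CPM of the 10 genes. Its level was 1917, 1556, 1531 and 1654 CPM in KO and 2234, 2016, 1610 and 1844 CPM in WT. The groups overlapped, since WT3 and WT4 lay within the KO range and KO1 and KO4 within the WT range. The means were 1664 ± 177 and 1926 ± 264 CPM (SD, n = 4) and the log2 fold change was -0.26, a difference of -16.3% (SE 0.093, interval -0.46 to -0.047, unadjusted p = 0.0211, BH-adjusted p = 0.3996 in edgeR). It was -0.13 within lane A and -0.39 within lane B. Kif1b also has the longest exons of the 10 genes, 17608 bases in all, and the log2 fold change was -0.15 (unadjusted p = 0.143) once an offset for exon length was included in each library, an alternative chosen after seeing the data.

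**Figure D2:**
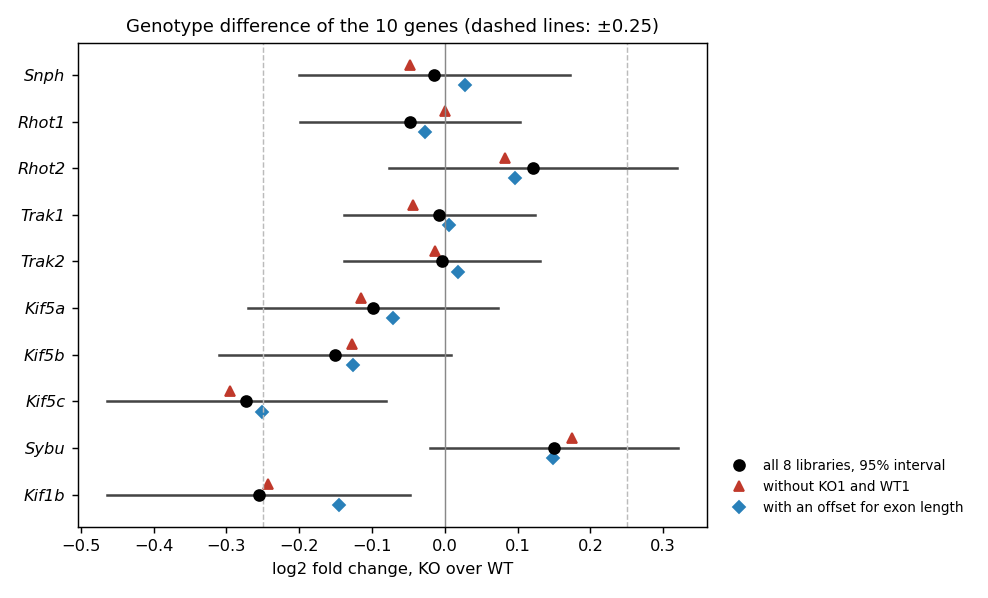
Log2 fold change of each gene, KO over WT, on the x axis. Black points and lines give the fit on all 8 libraries with its 95% confidence interval. Triangles give the fit without KO1 and WT1 and without the surrogate variable, and diamonds the fit with an offset for exon length. Only the intervals of Kif5c and Kif1b lie wholly on one side of 0, and the diamond of Kif1b, at -0.15, lies nearer 0 than its point at -0.26.

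The length of a gene moved with the genotype difference over the whole table. Among the 14453 tested genes with an exon length, 88.8% of all tested genes, the median log2 fold change was 0.055 in the shortest of 5 bins of equal gene number and -0.035 in the longest. The levels of the longest bin relative to the shortest, taken as log2 differences from the mean of each gene, were highest in WT1 at 0.35 and KO1 at 0.17. They lay at -0.065, -0.15 and -0.17 in KO2, KO3 and KO4, and at 0.015, -0.15 and -0.032 in WT2, WT3 and WT4. Of the 10 genes, 7 belonged to the longest bin, namely Snph, Rhot1, Trak2, Kif5a, Kif5b, Kif5c and Kif1b. With the offset the log2 fold change of Kif5c was -0.25 (unadjusted p = 0.0195), that of Kif5b -0.13, that of Sybu 0.15 and that of Snph 0.028. The value of Kif5c thus moved little with the offset.

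KO1 and WT1 were at the edge of the range for most of the 10 genes. They were the 2 lowest of the 8 for Snph, Rhot2, Trak1 and Kif5a, and the 2 highest for Rhot1, Kif5b and Kif5c, which makes 7 of 10 genes beside the 49.3% of all tested genes given above. For Rhot2 the log2 difference from the mean of the gene was -0.49 in KO1 and -0.66 in WT1, and for Kif5c it was 0.15 and 0.32. Patterns over the 8 libraries were compared by the root mean square difference of such centred log2 CPM. Snph was nearest to Trak1 at 0.096 and to Kif5a at 0.12, Rhot1 was nearest to Kif5b at 0.058, and Kif5c was nearest to Kif1b at 0.086, whereas Rhot1 and Rhot2 were 0.48 apart. These distances describe 8 libraries that share the place of KO1 and WT1.

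**Figure D3:**
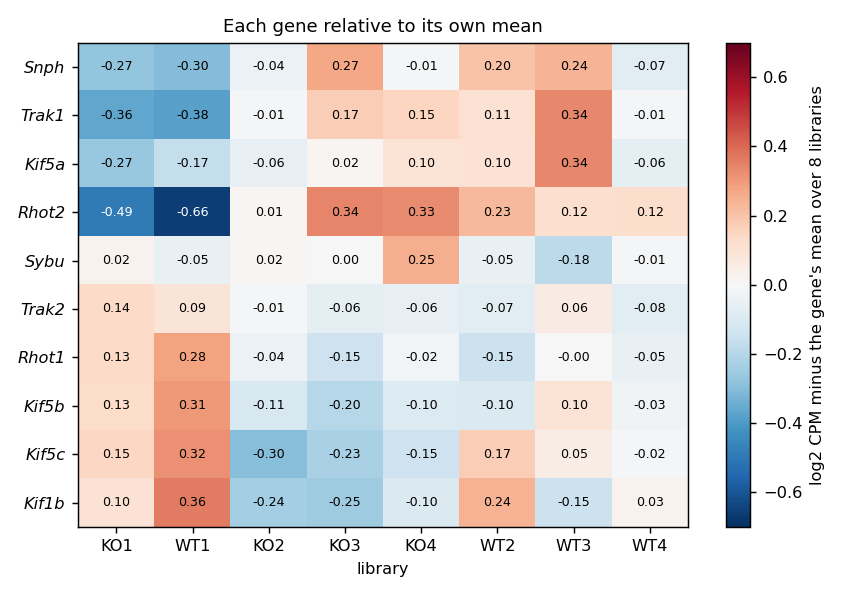
Log2 CPM of each gene (rows) in each library (columns) minus the mean of the gene over the 8 libraries, with the value in each cell. KO1 and WT1, the 2 columns on the left, are low for the upper 4 genes, down to -0.66 for Rhot2 in WT1, and above 0 for the lower 5.

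Over all tested genes, the 5 with a pattern most like that of Snph were Shank2, Gstm1, Tmem38a, an identifier without a symbol (ENSMUSG00000096847) and Cit, at root mean square differences of 0.054 to 0.073 over the 8 libraries. The SD of Snph itself over these libraries was 0.22 on the same log2 scale. Shank2, a scaffold protein of the postsynaptic density, had a level of 108, 142, 159 and 141 CPM in KO and 110, 144, 158 and 130 CPM in WT, with a log2 fold change of -0.00076. These values follow from its choice by likeness to Snph and are given as a description.

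Levels of different genes were compared as CPM per kilobase of exon. On that scale Kif5c was the most abundant of the 10, at a mean of 177 CPM per kilobase, and lay above Kif5a in 8 of 8 libraries. Kif5a at 112 and Kif1b at 102 overlapped, and they changed places when the longest transcript was taken as the length. Sybu followed at 70.8 and overlapped neither of its neighbours, although it overlapped Kif5a on the scale of the longest transcript. Kif5b at 21.95, Trak1 at 20.8 and Trak2 at 15.6 formed a lower group, in which each overlapped the next. Rhot1 at 11.6, Snph at 9.50 and Rhot2 at 7.72 were the least abundant, again each overlapping the next. The split between these groups depends on the length used, since per kilobase of the longest transcript Rhot1 at 19.2 stood above Trak2 at 17.9 and their ranges overlapped. On both scales, the 4 motor genes and Sybu thus stood above both Miro genes and Snph in every library.

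Within families, the balance between paralogs moved with KO1 and WT1. Of the kinesin-1 heavy chains per exon length, Kif5c made up 62.6%, 53.0%, 53.4% and 53.4% in KO1 to KO4 and 63.5%, 58.7%, 52.7% and 57.6% in WT1 to WT4. Kif5a made up 29.7%, 39.5%, 39.9% and 39.8% in KO and 28.7%, 35.2%, 40.5% and 35.2% in WT, and Kif5b between 6.04% and 7.83% in all. Kif5c was thus the main heavy chain in every library, with the largest share in KO1 and WT1. The share of Trak1 in the adaptor pair was 48.2%, 56.9%, 60.8% and 60.3% in KO and 48.7%, 59.9%, 61.5% and 57.9% in WT, so that Trak1 exceeded Trak2 in all libraries but KO1 and WT1. The share of Rhot1 in the Miro pair was 70.3%, 59.6%, 52.2% and 54.6% in KO and 74.7%, 54.1%, 58.6% and 57.6% in WT. The genotypes overlapped for every share. The summed CPM of Rhot1 and Rhot2, not divided by length, lay between 93.7 and 110, and that of the Trak pair between 200 and 259.

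**Figure D4:**
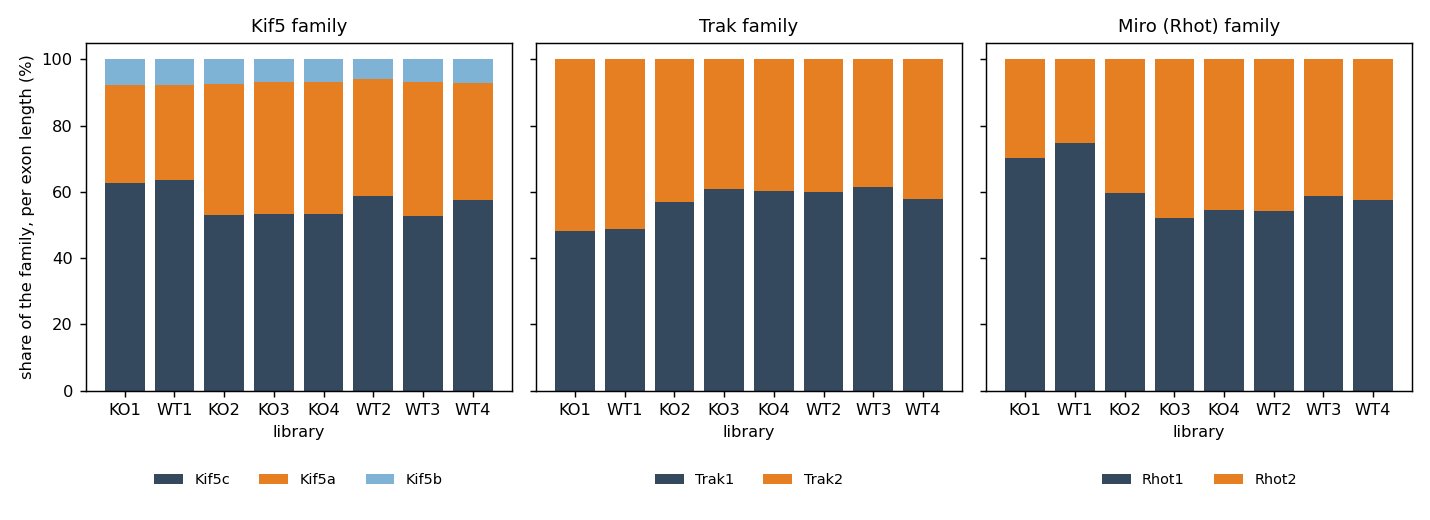
Share of each paralog in its family (%, y axis) per exon length, in each library (x axis), for the Kif5, Trak and Miro families. KO1 and WT1, the 2 bars on the left of each panel, have the largest shares of Kif5c (62.6% and 63.5%) and Rhot1 (70.3% and 74.7%) and the smallest of Trak1 (48.2% and 48.7%).

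Other genes of mitochondrial transport were followed in 4 lists with 72 genes, of which 70 were tested. No gene of these lists passed the BH threshold in edgeR, and 44 of the 70 had a log2 fold change above 0, with a median of 0.036, beside 53.8% of all tested genes above 0. The lenient rule called genes in 1 list, that of dynein and dynactin, the minus-end directed motor that returns mitochondria to the cell body. There 3 of 23 genes were called higher and 1 lower, and 5 had an unadjusted p under 0.05, beside 2.22%, 3.53% and 10.6% of all tested genes. Dynlrb1, a light chain, had 90.4, 122, 123 and 127 CPM in KO and 69.5, 88.3, 105 and 102 CPM in WT, with a log2 fold change of 0.33 (SE 0.056, unadjusted p = 0.000191, BH-adjusted p = 0.135). Each KO library except KO1 lay above every WT library. Dync1h1, the heavy chain that holds the motor, had a mean of 1532 ± 247 CPM in the KO libraries, against 1830 ± 309 CPM in WT (SD, n = 4), and a log2 fold change of -0.28 (BH-adjusted p = 0.333). Dynll2, another light chain, had a log2 fold change of 0.30 (BH-adjusted p = 0.369), and Nde1, a regulator of dynein, one of 0.37 (BH-adjusted p = 0.469). With the offset for exon length these became 0.27 for Dynlrb1, -0.16 for Dync1h1, 0.26 for Dynll2 and 0.34 for Nde1, and the calls of Dync1h1 (unadjusted p = 0.0527 in edgeR) and Nde1 (0.0584) ended. The exons of Dync1h1 span 15658 bases and those of Dynlrb1 1009.

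The remaining lists had no gene past the lenient rule, and the genes of these lists given here were named after their values were seen. Their counts stand beside 53.8% of all tested genes with a log2 fold change above 0 and 10.6% with an unadjusted p under 0.05. Of 20 kinesin partners (light chains, scaffolds and other kinesins), 18 were tested, 11 had a log2 fold change above 0 and 2 had an unadjusted p under 0.05. These were Ranbp2, a nucleoporin that binds kinesin-1, at a log2 fold change of -0.24 (unadjusted p = 0.00202, BH-adjusted p = 0.251 in edgeR), and Mapk8ip1, a scaffold of JNK signalling, at 0.13 (unadjusted p = 0.0403, BH-adjusted p = 0.455 in edgeR). Of 18 genes for partners of MIRO on the outer membrane, 15 were above 0 and 2 had an unadjusted p under 0.05. These were Pink1, the kinase that marks damaged mitochondria, and Armc10, at log2 fold changes of 0.22 each (unadjusted p = 0.00467 and 0.00736, BH-adjusted p = 0.319 and 0.346 in edgeR). Of 11 genes for anchoring on actin and its kinases, 6 were above 0 and none had an unadjusted p under 0.05, among them Stk11, which encodes LKB1, at 0.096. Klc3 and Mgarp were not tested, with counts of at most 17 and 9 in any library.

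**Figure D5:**
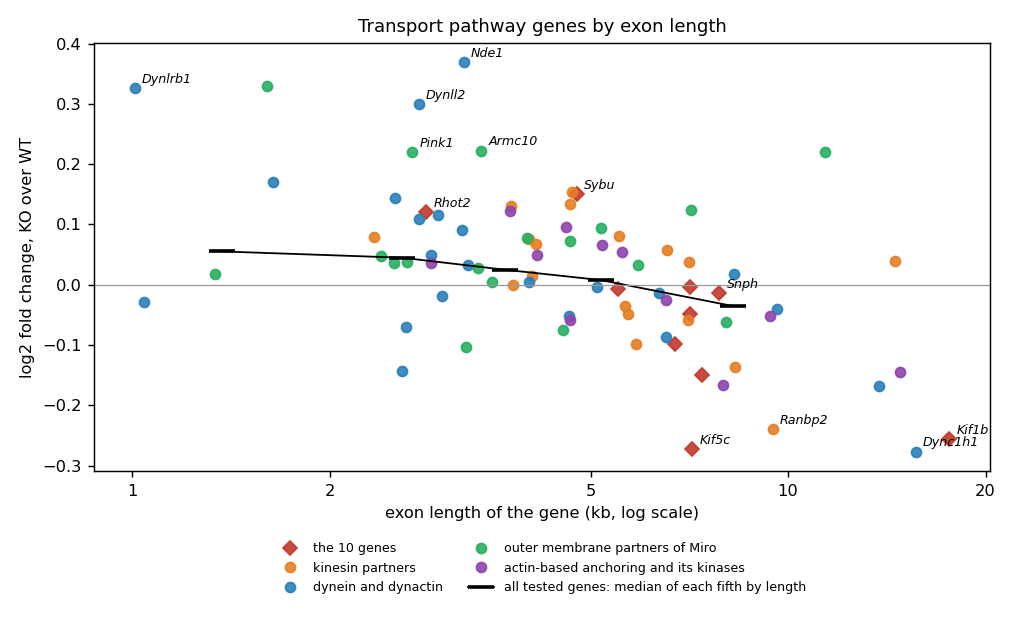
Log2 fold change, KO over WT (y axis), against exon length in kilobases (x axis, log scale) for the 10 genes and the 4 pathway lists, with the median of all tested genes in each of 5 bins by length as black bars. The medians run from 0.055 to -0.035, Kif1b and Dync1h1 lie at the long end below 0, and Dynlrb1 lies at the short end above 0.

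Markers of other cells were measured in the same libraries. The 12 markers of projection neurons summed to between 5487 and 6166 CPM in the KO libraries and between 5583 and 6309 CPM in the WT libraries. Their log2 fold change was above 0 for 5 of 12, beside 53.8% of all tested genes. The 7 astrocyte markers summed to between 724 and 1396 CPM in KO, against 696 to 1043 CPM in WT, with 7 of 7 above 0. The 9 markers of progenitors and dividing cells summed to 305 to 412 and 189 to 332 CPM, with 7 of 9 above 0. The 8 microglia markers summed to 3.19 to 36.3 and 3.42 to 15.3 CPM, with 5 of the 6 tested above 0. That sum and the astrocyte sum were highest in KO3 and, within KO, lowest in KO4. The 7 interneuron markers summed to 188 to 325 and 166 to 260 CPM, with 5 of 7 above 0. For the 7 oligodendrocyte lineage markers the sums were 508 to 611 and 486 to 592 CPM, with 3 of 7 above 0. Those of the 8 endothelial and fibroblast markers were 12.03 to 21.8 and 6.90 to 35.3 CPM, with 2 of the 6 tested above 0. Each of these ranges overlapped between genotypes and no marker was at 0 in all libraries, although Tmem119 of microglia and Cldn5 of endothelium did not exceed 2 counts in any. The part of these cells in the values of Kif5c, Kif1b and Sybu was not tested.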

How the data were processed

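The authors deposited raw read counts per Ensembl gene for each library. According to the study's methods and the submitters' processing notes, reads were trimmed with Cutadapt 1.10, ribosomal reads were discarded, the rest were aligned to mm10 with STAR 2.5.3a, and reads aligned to a single place were counted with HTSeq 0.6.1p1 in union mode, without pooling. This leaves reads from repeated or overlapping sequence uncounted. Read length and layout differ between labels and methods, and use of strand in counting is not stated.

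Genes were mapped to symbols and GRCm38 positions through RefSeq tables. Counts were filtered with filterByExpr, scaled by TMM and tested with the robust quasi-likelihood F test of edgeR 4.0.16 in R 4.3.3, with genotype and 1 surrogate variable (svaseq, sva 3.50.0) as terms and BH adjustment over 16272 genes. SEs were taken as the absolute log2 fold change over the root of the F statistic. The lenient rule is the threshold the study used. CPM is per total counts of a library, from 31247078 to 67155004, and errors are SD over 4 libraries. Exon lengths and overlaps came from GENCODE M1 (NCBIM37), repeated sequence from blastn 2.17.0, and promoters from RefSeq GRCm38.p6. The procedure was tested on simulated counts.

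The 10 genes and the lists were chosen with earlier results of these data known. Named genes were the 10, Nuak1, up to 4 genes per pathway list past the lenient rule with the smallest p, and the 5 nearest Snph in pattern. Tubb3, Map2, Stk11, Tmem119, Cldn5 and the genes of the lists without a call by the lenient rule were named outside this rule. Alternatives covered surrogate variables, lane, strain code or replicate number as terms, size factors, filters, DESeq2 1.42.0, limma-voom (limma 3.58.1), each lane alone and leaving out libraries. No surrogate variable was used with lane or the strain code as a term, in each lane alone, or without KO1 and WT1 together.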

Additional observations from a re-analysis of the deposited data

Results flagged for a closer look

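In 4 of 30 groups of 4 libraries (10 genes in CPM and 5 family shares, in each genotype), 1 library stood far from the other 3 by Dixon's criterion. Chance gives about 1 in 20 such groups, or 1.5 here. Rhot2 was at 13.03 CPM in WT1, with the other WT libraries between 22.93 and 23.59 CPM. Sybu was at 399.3 CPM in KO4, with the other KO libraries between 342.9 and 349.8 CPM. In KO1 the Kif5a share of the kinesin-1 heavy chains was 29.67%, with the others between 39.51% and 39.87%, and the Kif5c share was 62.62%, with the others between 52.98% and 53.37%. The last 2 are parts of the same sum and are not separate observations.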

How the results depend on the processing

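None of the 10 genes passed the BH threshold under any of the 23 alternatives. Kif5c had a negative log2 fold change in all 23 (-0.36 to -0.19), with an unadjusted p under 0.05 in 20 and an adjusted p of 0.078 (DESeq2) or more, and Kif1b in all 23 (-0.39 to -0.13), with an unadjusted p under 0.05 in 13. Sybu was above 0 in all 23 (0.030 to 0.29), with an unadjusted p under 0.05 in none. Rhot2 (above 0) and Kif5b (below 0) kept their direction in all 23, at 0.0044 (lane B) to 0.19 and -0.19 to -0.035 (strain code).

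The number of all tested genes past the BH threshold was 8, and it became 4 without a surrogate variable, 4 with 2 surrogate variables, 4 with lane, 45 without a filter on low counts, 168 with DESeq2, 0 in lane A (where the lenient rule called 21 genes higher and 75 lower), 99 in lane B, 3 without KO1 and WT1, 5 with the length offset, and 3 to 91 when 1 library was left out (91 without WT3). Members past the lenient rule and lower in KO numbered 2, and 0 without a surrogate variable, 1 with 2, 1 with lane, 0 in lane A, 1 without KO1 and WT1, 1 with the length offset, and 0 to 2 when 1 library was left out (0 without KO2 or WT2). The fit with the strain code compares only KO4 with WT2 and WT4 and is left out of the counts in this paragraph. Members without overlap and lower in KO numbered 0, and 1 without KO1 and WT1. The causes were not tested.

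Directions reversed for genes whose log2 fold change was near 0. Snph was at 0.042 in lane B, 0.028 with the length offset and -0.079 to 0.026 with 1 library left out. Rhot1 was at 0.00048 with 2 surrogate variables, 0.081 with the strain code and 0.00017 in lane B. Trak1 was at 0.023 with 2 surrogate variables, 0.10 with the strain code, 0.027 in lane B, 0.0060 with the length offset and -0.034 to 0.029 with 1 library left out. Trak2 was at 0.0018 without a surrogate variable, 0.036 with 2, 0.0031 with lane, 0.019 with the strain code, 0.028 in lane B, 0.018 with the length offset and -0.029 to 0.039 with 1 library left out. Kif5a was at 0.073 with the strain code, a fit that compares only KO4 with WT2 and WT4.

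Replicate numbers did not pair the libraries. The correlation of deviations from the group mean between KO and WT libraries of the same number was 0.80, 0.012, 0.25 and 0.0023, and only KO1 correlated best with its own number. With the replicate number as a block in place of the surrogate variable, 3 genes passed the BH threshold and 1 member was lower by the lenient rule, and Trak2 was at 0.0014. That block ended the lenient call of Kif1b, at a log2 fold change of -0.243 (unadjusted p = 0.0436 in edgeR). With the block beside the surrogate variable, 3 genes passed the BH threshold and 0 members the lenient rule, with Trak1 at 0.00057 and Trak2 at 0.0098. Kif5c was then at -0.244 and Kif1b at -0.237 (unadjusted p = 0.0218 and 0.0452 in edgeR).

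Family shares depend on the length used. The mean share of Rhot1 was 78.9% in counts and 71.3% per longest transcript, with Rhot2 at 21.1% and 28.7%, that of Trak1 50.6% and of Trak2 49.4% in counts, and that of Kif5b 8.01% per longest transcript. The length offset was chosen after seeing the data. KO1 decides the overlap of Kif5c, and without KO4 the log2 fold change of Sybu was 0.075.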
